A study of Mus musculus with 9 samples.

Results

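Lag3, Havcr2, Cd160 and Cd101 encode 4 inhibitory receptors of lymphocytes, and their transcripts were followed across 3 subsets of γδ T cells. The genes were chosen by name, with earlier results of these data known, as were the gene lists and motifs read beside them. Shares over all genes are therefore given as description only. Each gene had a single array row annotated with that symbol alone, so 4 of the 22180 genes tested are described, on all 9 arrays. The cells came from C57BL/6 mice with no treatment given in the labels, and 3 Affymetrix Mouse Gene 2.0 ST arrays were run per subset. Intraepithelial lymphocytes (IELs) were taken from the intestinal epithelium, whereas the Naive-like and Type-1 subsets were taken from peripheral lymph nodes (axillary, brachial and inguinal). Tissue and subset therefore cannot be told apart wherever IELs are compared, whereas the lymph node subsets share their tissue. The sources used here give neither the sorting gates nor the age of the mice, nor whether an array holds RNA of 1 animal or of a pool. The labels call the replicates biological, and p-values reflect the spread among these arrays. None of the antibodies in the labels' protocols is against the 4 receptors, although CD5, CTLA-4, PD-1 and TIGIT are among their targets.

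LAG-3, the product of Lag3, is a relative of CD4 that binds major histocompatibility complex (MHC) class II and restrains activated T cells. TIM-3, the product of Havcr2, belongs to the T-cell immunoglobulin and mucin family and is carried by T cells, natural killer (NK) cells and dendritic cells, with galectin-9 and CEACAM1 among its reported ligands. CD160 is a lipid-anchored receptor of NK cells and intestinal T cells that binds the herpesvirus entry mediator HVEM, a protein also bound by the inhibitory receptor BTLA. CD101 is a large immunoglobulin-type receptor of T cells and myeloid cells, and it lowers T-cell activation.

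The stretch of 250 bases before the transcription start is shown for the members found in the RefSeq promoter table (GRCm38.p6), because their transcripts were all highest in the same subset. Havcr2 and Cd101 have 1 start in that table and Cd160 has 2, and Lag3 is not among its entries. Sequences run 5′ to 3′ on the gene's own strand, and capitals mark matches to any of 4 motifs of 7 letters searched on both strands: AP-1 (TGANTCA), the NR4A response element (AAGGTCA), T-box (GGTGTGA) and Runx (TGTGGTT). No matches overlapped each other.
Havcr2, chr11:46454681-46454930, + strand: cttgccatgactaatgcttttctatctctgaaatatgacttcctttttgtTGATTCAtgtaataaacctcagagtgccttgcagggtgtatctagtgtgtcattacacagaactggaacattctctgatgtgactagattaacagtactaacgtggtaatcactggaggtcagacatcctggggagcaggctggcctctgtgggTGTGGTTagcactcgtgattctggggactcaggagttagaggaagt
Cd160 first start, chr3:96829352-96829601, - strand: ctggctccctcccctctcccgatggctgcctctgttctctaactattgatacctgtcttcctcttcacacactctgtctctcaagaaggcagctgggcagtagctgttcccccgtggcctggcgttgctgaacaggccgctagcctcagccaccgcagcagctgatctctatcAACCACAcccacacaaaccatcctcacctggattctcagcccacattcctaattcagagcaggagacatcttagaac
Cd160 second start, chr3:96814522-96814771, - strand: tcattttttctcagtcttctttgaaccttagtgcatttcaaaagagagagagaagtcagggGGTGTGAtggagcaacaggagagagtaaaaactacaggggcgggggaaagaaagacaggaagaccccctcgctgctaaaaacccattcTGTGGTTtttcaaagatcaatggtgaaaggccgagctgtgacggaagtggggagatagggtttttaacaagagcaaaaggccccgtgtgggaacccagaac
Cd101, chr3:101029554-101029803, - strand: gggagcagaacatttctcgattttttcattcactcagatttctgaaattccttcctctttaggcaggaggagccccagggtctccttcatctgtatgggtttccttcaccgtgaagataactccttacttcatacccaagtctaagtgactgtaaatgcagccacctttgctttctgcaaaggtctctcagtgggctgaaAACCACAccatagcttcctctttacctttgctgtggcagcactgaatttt
The Runx letters were present in all 4 windows, against 4.40% of the 32851 windows of the same length in the table. In Havcr2 the match began 46 bases before the start, as TGTGGTT, and in Cd101 at 50 bases before it, as the reverse complement AACCACA. In Cd160 it began at 77 bases before the first start and 101 bases before the second. The AP-1 letters were found only in Havcr2 and the T-box letters only before the second Cd160 start, whereas 6.75% and 3.33% of all windows held them. The NR4A letters, present in 4.08% of all windows, were in none of the 4. The motifs were chosen with earlier results of these data known. These matches describe the letters of the windows and do not show binding.

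All values that follow are log2 array levels, with n = 3 arrays per subset, and levels are compared between subsets, never between genes. Lag3 measured 7.39, 7.25 and 7.35 on the 3 IEL arrays, 5.24, 5.64 and 4.76 on the Type-1 arrays and 4.83, 4.93 and 4.38 on the Naive-like arrays. Every IEL array lay above every lymph node array, while the Type-1 and Naive-like arrays overlapped. The IEL arrays were also tightly grouped, with a mean of 7.33 ± 0.07 (SD, n = 3) against 5.21 ± 0.44 in Type-1 and 4.71 ± 0.30 in Naive-like cells. Lag3 was higher in IELs by 2.61 ± 0.24 (standard error) than in Naive-like cells, a 6.12-fold difference with a 95% interval of 4.23 to 8.85 (limma, Benjamini-Hochberg adjusted p = 3.26e-05). Against Type-1 cells it was higher by 2.11 ± 0.24, or 4.32-fold (limma adjusted p = 0.000211). In bulk RNA of this kind, fewer cells carrying a transcript and less of it per cell cannot be told apart.

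Havcr2 was dim throughout, at 3.94, 3.84 and 3.97 on the IEL arrays, 2.77, 2.94 and 2.66 on the Type-1 arrays and 2.68, 2.56 and 2.48 on the Naive-like arrays. The IEL arrays again stood above all others, and the lymph node subsets overlapped. The difference was 1.34 ± 0.18 between IELs and Naive-like cells (limma adjusted p = 0.000502) and 1.13 ± 0.18 between IELs and Type-1 cells (limma adjusted p = 0.00223). The mean of Havcr2 over 9 arrays, 3.09, fell under the filter on dim genes used as an alternative, whose limit was 4.10, so under that filter it was not tested. The table carries no detection calls, so whether Havcr2 was above background in any subset was not tested.

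Cd160 measured 8.03, 7.56 and 7.84 on the IEL arrays, 6.29, 6.50 and 6.86 on the Type-1 arrays and 5.77, 5.57 and 5.98 on the Naive-like arrays. It was the single member whose 3 subsets did not overlap at all, with Type-1 cells between the others. Cd160 was higher in IELs by 2.04 ± 0.22 than in Naive-like cells, or 4.10-fold (limma adjusted p = 0.000106), and by 1.26 ± 0.22 than in Type-1 cells, or 2.39-fold (limma adjusted p = 0.00439). Its excess in Type-1 over Naive-like cells, 0.78 ± 0.22, had an unadjusted p of 0.0040 but did not pass after adjustment over all genes (limma adjusted p = 0.355).

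Cd101 measured 6.59, 6.92 and 7.31 on the IEL arrays, 5.47, 4.49 and 5.50 on the Type-1 arrays and 4.35, 4.98 and 4.57 on the Naive-like arrays. IELs were again separate from both lymph node subsets, and the spread among Type-1 arrays (SD 0.57) was the widest of any member in any subset. The difference was 2.31 ± 0.30 between IELs and Naive-like cells, or 4.96-fold (limma adjusted p = 0.000439), and 1.79 ± 0.30 between IELs and Type-1 cells, or 3.46-fold (limma adjusted p = 0.00341).

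**Figure D1:**
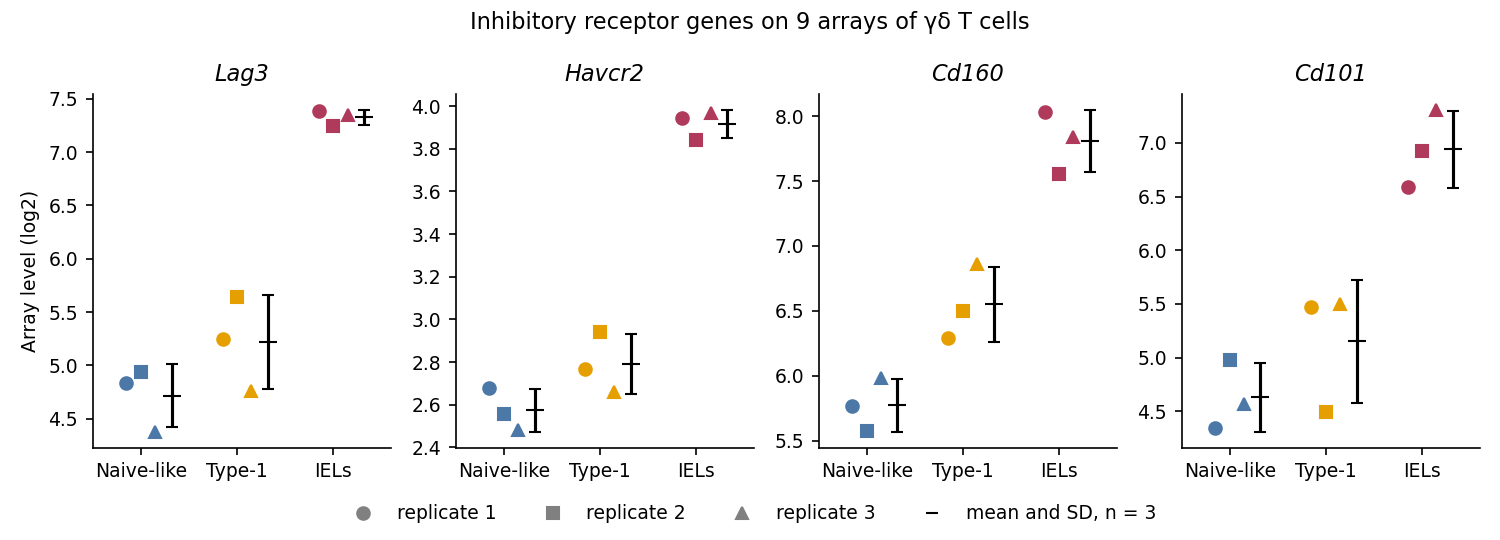
Array level (log2) of each receptor gene in Naive-like, Type-1 and IEL γδ T cells; symbols are the 3 replicates and black bars the mean and SD. In every panel the 3 IEL arrays lie above all 6 lymph node arrays, and only for Cd160 do the Type-1 arrays all lie above the Naive-like arrays.

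Set against Naive-like cells, IELs had higher levels of 4 of 4 members, where 5.19% of all 22180 genes passed the test and 3.57% passed as higher. All 4 were also without overlap between arrays there, as were 20.1% of all genes. Their median difference was 2.17, against -0.01 over all genes. Of all genes, 0.627% had a difference as large as that of Lag3 and 2.23% one as large as that of Havcr2, the ends of the members' range. Set against Type-1 cells, IELs were higher for 4 of 4 members as well, where 5.14% of genes passed and 3.73% passed as higher, and 19.8% were without overlap. The median difference of the members was 1.52, against -0.03 over all genes. These comparisons share the IEL arrays and are not independent of each other. The members were chosen with earlier results of these data known, so their counts are no independent support.

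Between the lymph node subsets no member passed. None of the 4 members passed the limma test at an adjusted p under 0.05, where 0.284% of all genes did, and 1 of 4, Cd160, had an unadjusted p under 0.05, as did 6.48% of all genes. That member was also the one whose arrays did not overlap, as was the case for 11.4% of all genes. The mean was nevertheless higher in Type-1 cells for all 4 genes, by 0.50 ± 0.24 for Lag3, 0.22 ± 0.18 for Havcr2 and 0.52 ± 0.30 for Cd101. Their 95% intervals were -0.03 to 1.03, -0.17 to 0.60 and -0.13 to 1.17, whose upper ends are 2.05-fold for Lag3, 1.52-fold for Havcr2 and 2.25-fold for Cd101. Of all genes, 4.33% had a difference here as large as that of Lag3, 22.0% as that of Havcr2, 1.25% as that of Cd160 and 3.86% as that of Cd101. The order of the means was IELs, Type-1 and Naive-like for each gene, with no test passed between the last 2. An F test over the 3 subsets, passed by 5.41% of all genes, was passed by all 4 (limma adjusted p = 6.03e-05 for Lag3, 0.000281 for Cd160, 0.000839 for Havcr2 and 0.000875 for Cd101).

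**Figure D2:**
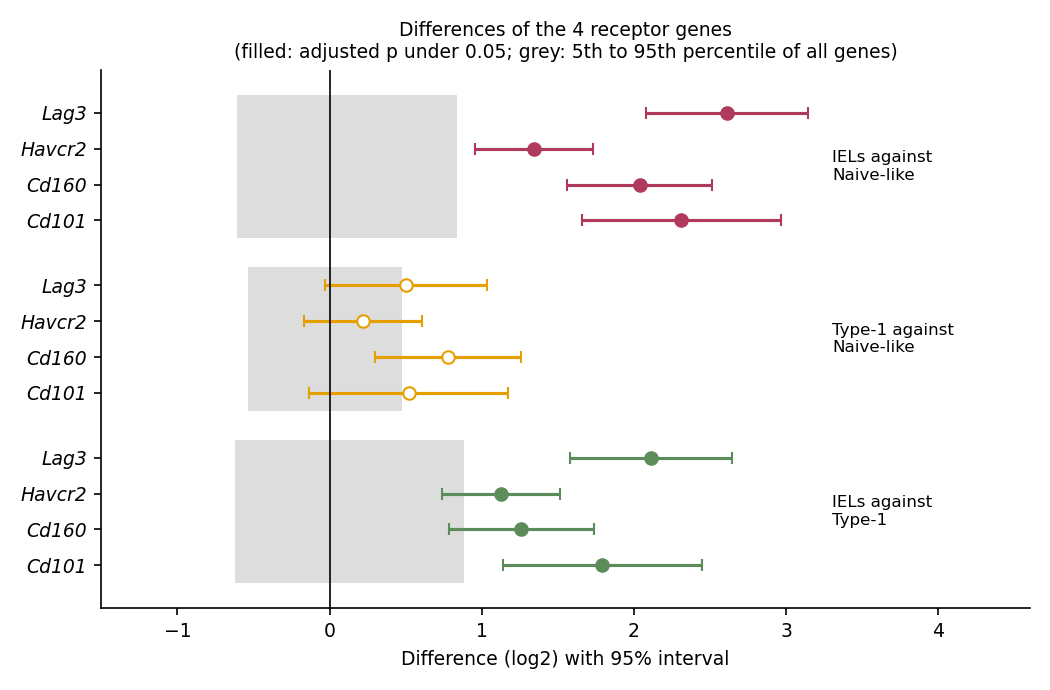
Difference in log2 level with its 95% interval for each gene in the 3 comparisons; filled points passed the test at an adjusted p under 0.05, and grey bands span the 5th to the 95th percentile of all genes (-0.61 to 0.84 for IELs against Naive-like cells). The 8 differences that involve IELs lie above their bands, between 1.13 and 2.61. Between Type-1 and Naive-like cells, Lag3 (0.50), Cd160 (0.78) and Cd101 (0.52) also lie above the upper end of the band, 0.47, without passing, and Havcr2 (0.22) lies within it.

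Replicate 3 of each subset carries a date-like code in its description, which the other arrays lack and which is called the date code here. It was treated as a possible batch, so differences were also read within these sets. Between the date-coded arrays, 1 per subset and therefore without a test, IELs exceeded Naive-like cells by 2.97 for Lag3, 1.48 for Havcr2, 1.86 for Cd160 and 2.74 for Cd101. Within the 6 arrays without the code the same differences were 2.43, 1.27, 2.12 and 2.09, and all 4 passed (highest limma adjusted p = 0.0305). Against Type-1 cells the date-coded arrays gave 2.59, 1.30, 0.98 and 1.81 in the same gene order, and the other arrays 1.87, 1.04, 1.40 and 1.78. Here Lag3 and Cd160 passed within the 6 arrays, whereas Havcr2 (limma adjusted p = 0.0611) and Cd101 (limma adjusted p = 0.0569) did not, with 2 arrays per subset.

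The cells were checked against marker genes. The T-cell receptor subunits Cd3d, Cd3e and Cd3g were bright in every subset, from 10.06 to 12.32 over all arrays, and only Cd3g passed a test, being higher in IELs than in Type-1 cells by 0.99 ± 0.23 (limma adjusted p = 0.0269). That call was lost without IEL replicate 2 or 3 or Type-1 replicate 2 or 3, and also in the 6 arrays that lack the date code. Sox13 and Blk, the other measured genes of the γδ list, passed in no comparison of the main fit. Blk was nevertheless lower on every IEL array than on every lymph node array. It differed by -0.81 ± 0.22 from Naive-like and -0.80 ± 0.22 from Type-1 cells (limma adjusted p = 0.0575 and 0.0629). Receptor chain genes of γδ T cells on the marker list had no row of a single symbol and are not analysed here. Itgae, the integrin chain of intraepithelial T cells, averaged 11.18 in IELs against 8.67 in Naive-like and 6.23 in Type-1 cells, and Cd8a averaged 9.61 in IELs against 6.21 and 6.00.

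Transcripts typical of epithelium moved with the same contrast as the receptors. Of 19 epithelial markers, 12 were higher in IELs in each comparison with lymph node cells, and none was lower. Of all genes, 3.57% passed as higher against Naive-like and 3.73% against Type-1 cells. The summed linear signal of the epithelial markers was 1420 to 2569 on IEL arrays, 398 to 456 on Naive-like arrays and 402 to 438 on Type-1 arrays. The highest IEL sum was that of replicate 2, and the lowest IEL sum was still above every lymph node sum. The part of epithelial transcripts in the differences of the 4 receptors was not tested.

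TIM-3 and CD101 are also made by myeloid cells, whose markers were therefore read beside them. Of 15 dendritic cell and macrophage markers, 1 was higher in IELs than in each lymph node subset and none lower. This was Itgax, which encodes CD11c, an integrin chain that intestinal T cells can carry as well (4.86 ± 0.29 against Naive-like cells, limma adjusted p = 8.71e-07). The other 14 summed to 304 to 350 on IEL arrays, 295 to 387 on Naive-like arrays and 300 to 426 on Type-1 arrays, ranges that overlapped. With Itgax the list summed to 772 to 1071, 311 to 415 and 355 to 466. The shares of all genes that passed as higher in IELs were 3.57% against Naive-like and 3.73% against Type-1 cells.

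NK cells carry LAG-3, TIM-3 and CD160 as well. Ncr1, the gene of the NK receptor NKp46, averaged 4.26 ± 0.16 in IELs, 4.22 ± 0.27 in Naive-like and 6.46 ± 1.01 in Type-1 cells, with the highest mean in a lymph node subset. Of 8 measured markers of NK and innate lymphoid cells, IELs had 3 higher and 2 lower than Naive-like cells, where 5.19% of all genes passed. They had 2 higher and 4 lower than Type-1 cells, where 5.14% of all genes passed. The whole list summed to 7206 to 9525 in IELs, 1494 to 2377 in Naive-like and 2758 to 4451 in Type-1 cells. Without Cd7 and Kit, which intestinal T cells can express too, it summed to 332 to 421, 918 to 1197 and 1393 to 2388. Il7r was kept in this reduced sum and had its largest signal in each subset, with log2 means of 7.67, 9.69 and 10.46. The order of the reduced sum therefore leans on Il7r, and the share of NK cells was not tested. For Klrb1c, also on the list, the IEL difference was 1.24 ± 0.32 from Naive-like cells (limma adjusted p = 0.0458). From Type-1 cells it was -1.26 ± 0.32 (limma adjusted p = 0.0433). Of 8 mast cell markers Kit alone was higher in IELs, in both comparisons, and of 7 B-cell and plasma cell markers none passed in either, with summed signals of 127 to 192 in IELs, 135 to 163 in Naive-like and 116 to 159 in Type-1 cells. Of 4 markers of αβ T cells, 1 was lower in IELs than in Naive-like cells, Cd8b1, and none passed against Type-1 cells. Cd8b1 averaged 7.54 ± 1.30 in IELs, 10.35 ± 0.15 in Naive-like and 8.21 ± 0.20 in Type-1 cells (SD, n = 3). The 4 markers summed to 118 to 501 in IELs, 1224 to 1492 in Naive-like and 314 to 398 in Type-1 cells. The share of αβ T cells was not tested. Values are on arrays of no stated background, so none of these genes can be called absent.

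**Figure D3:**
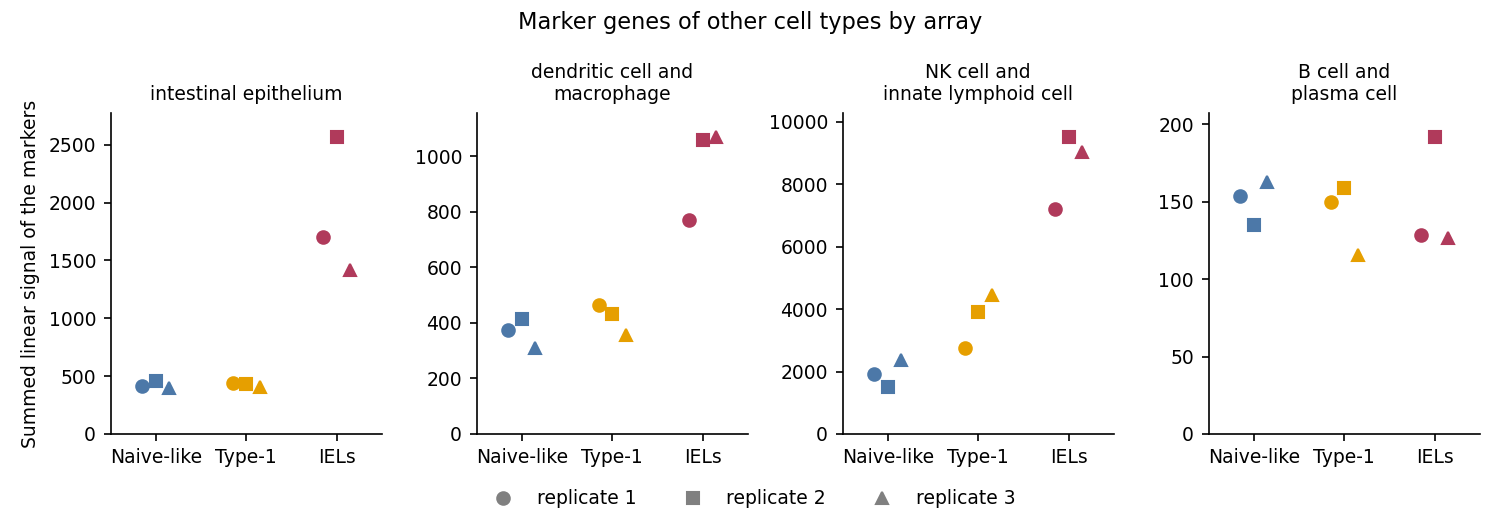
Summed linear signal of the measured marker genes of 4 other cell types on each array, by subset and replicate. The epithelial sum is 1420 to 2569 on IEL arrays and at most 456 elsewhere, while the B-cell sums overlap between subsets; the higher myeloid sum of IELs is carried by Itgax.

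Of 15 genes for ligands, partners and cleaving enzymes of the receptors, 1 was higher and 1 lower in IELs in each of the comparisons with lymph node cells, and the median difference was 0.03 against Naive-like cells and 0.19 against Type-1 cells. The list was chosen with earlier results of these data known, and 5.19% and 5.14% of all genes passed in the same comparisons. The lower gene was Btla, whose product shares the ligand HVEM with CD160 and also restrains T cells. Btla measured 4.94, 3.92 and 4.41 on IEL arrays, 6.12, 6.40 and 7.14 on Type-1 arrays and 6.84, 6.77 and 7.31 on Naive-like arrays. All IEL arrays were below all others, the opposite of Cd160. The decrease was -2.55 ± 0.31 against Naive-like cells (limma adjusted p = 0.000282) and -2.13 ± 0.31 against Type-1 cells (limma adjusted p = 0.00128). Tnfrsf14, which encodes HVEM itself, did not pass, at 6.37 ± 0.31 in IELs, 6.34 ± 0.05 in Naive-like and 6.17 ± 0.28 in Type-1 cells (SD, n = 3). Tnfsf14, the gene of the further HVEM ligand LIGHT, did not pass either, with 4.58 ± 0.12, 4.54 ± 0.21 and 5.09 ± 0.38 in the same order.

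For LAG-3, the higher gene of the list was Lgals3, which encodes the reported ligand galectin-3 and is also made by epithelium. It measured 5.92, 6.08 and 6.39 on IEL arrays against 4.86, 4.89 and 4.13 on Naive-like and 4.56, 5.02 and 4.18 on Type-1 arrays. The difference was 1.50 ± 0.27 and 1.54 ± 0.27 against these subsets (limma adjusted p = 0.00511 and 0.00470), and neither call held within the 6 arrays without the date code (limma adjusted p = 0.0682 and 0.0506). The part of epithelial transcripts in it was not tested. The MHC class II genes H2-Aa, H2-Ab1 and H2-Eb1 differed by 0.76 ± 0.41, 1.36 ± 0.75 and 0.49 ± 0.31 from Naive-like cells and did not pass. Fgl1 and Clec4g, for further reported ligands, averaged 2.79 to 3.60 in all subsets and did not pass. Adam10 and Adam17, proteases that shed LAG-3 and TIM-3 from the surface, did not pass, at 0.02 ± 0.21 and -0.58 ± 0.23 against Naive-like cells.

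For TIM-3, Lgals9, the galectin-9 gene, averaged 9.40 ± 0.27 in IELs, 9.60 ± 0.21 in Naive-like and 9.34 ± 0.10 in Type-1 cells (SD, n = 3) and did not pass. Ceacam1, whose product is a ligand also made by epithelium, measured 4.84, 7.22 and 5.07 on IEL arrays, whose epithelial sums were 1704, 2569 and 1420. Its difference of 1.64 ± 0.51 from Naive-like cells did not pass (limma adjusted p = 0.107). The part of epithelial transcripts in the Ceacam1 values was not tested. Bag6, whose product binds the tail of TIM-3 inside the cell, and Hmgb1, for another ligand, did not pass in any comparison.

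**Figure D4:**
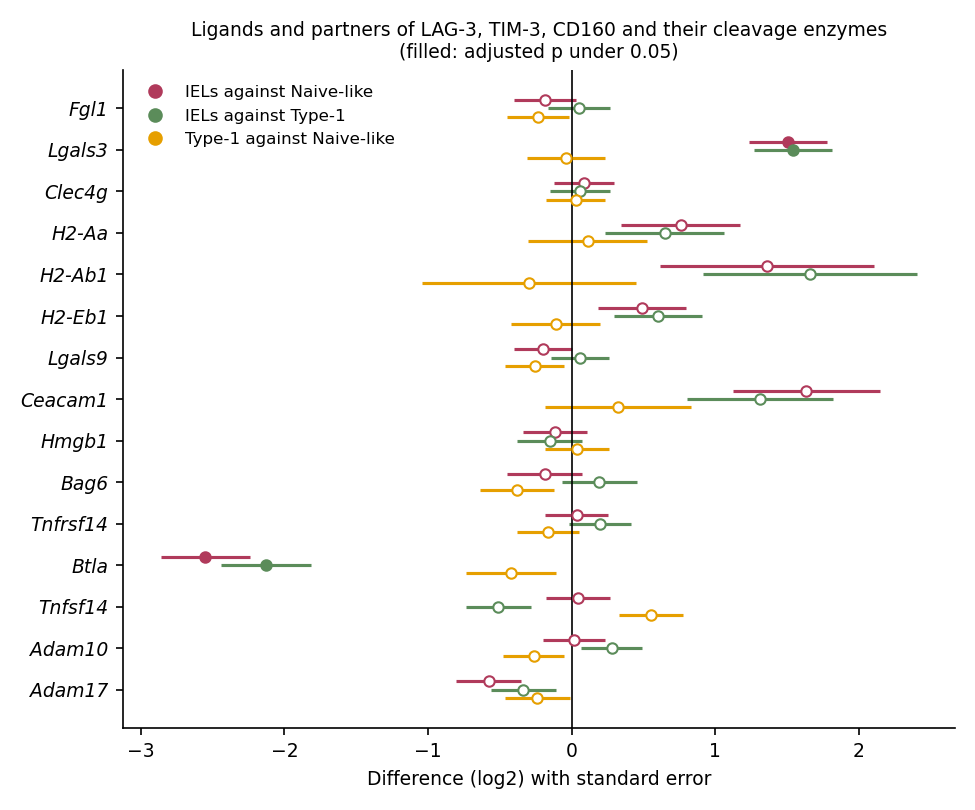
Difference in log2 level with its standard error for 15 genes of ligands, partners and cleaving enzymes in the 3 comparisons; filled points passed at an adjusted p under 0.05. Btla lies to the left at -2.55 and -2.13 and Lgals3 to the right at 1.50 and 1.54 in the comparisons with IELs, and no gene of the list passed between Type-1 and Naive-like cells.

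Among the nearest relatives of the receptors, none of 7 passed the limma test in any comparison, and with an unadjusted p under 0.05 there was 1 in Type-1 against Naive-like cells and 0 in each comparison with IELs. Cd4, which lies next to Lag3 in the genome and encodes its closest relative, differed by -0.19 ± 0.21 between IELs and Naive-like cells. The TIM family members Havcr1, Timd2 and Timd4 differed by -0.08 ± 0.23, 0.30 ± 0.23 and -0.28 ± 0.22, and the CD101 relatives Ptgfrn, Igsf3 and Igsf8 by -0.17 ± 0.28, 0.52 ± 0.29 and 0.02 ± 0.23. Between the lymph node subsets the largest were those of Ptgfrn (-0.57 ± 0.28) and Timd2 (0.54 ± 0.23). Whether the differences of the relatives are smaller than those of the members was not tested. Of the 16 protein-coding genes that flank the members, 2 on each side in the RefSeq gene table, 13 were tested. None of these 13 passed the limma test in any comparison, 1 had an unadjusted p under 0.05, and their differences between IELs and Naive-like cells ran from -0.26 (Polr3c, beside Cd160) to 0.59 (Med7, beside Havcr2).

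Other inhibitory receptor genes moved in both directions. Of 17 measured, 6 rose and 2 fell in IELs relative to Naive-like cells, with a median difference of 0.35 (-0.01 over all genes), and 5 rose and 1 fell relative to Type-1 cells, with a median of 0.26 (-0.03 over all genes). Of all genes, 5.19% and 5.14% passed in these comparisons, and this list too was chosen with earlier results of these data known. With the replicate number as a block, 2 of the 17 fell relative to Type-1 cells. Antibodies to CD5, CTLA-4, PD-1 and TIGIT are listed in the labels, and whether they served in the sort is not stated. Cd244a, Tigit, Lilrb4a and Cd200r1 had the largest increases over Naive-like cells, at 6.35 ± 0.23, 5.93 ± 0.32, 5.28 ± 0.61 and 5.22 ± 0.29. Over Type-1 cells, Tigit, Cd200r1 and Cd244a were higher by 5.51 ± 0.32, 4.96 ± 0.29 and 4.84 ± 0.23 and Cd5 lower by -3.25 ± 0.25, while Lilrb4a did not pass (2.08 ± 0.61, limma adjusted p = 0.0845). Cd96, for a receptor of the same ligand family as TIGIT, was higher by 0.96 ± 0.19 and 1.32 ± 0.19. The Cd96 call against Naive-like cells was lost without Naive-like replicate 2 (limma adjusted p = 0.0555). It was also lost in the 6 arrays that lack the date code (limma adjusted p = 0.0618). Ctla4, whose product competes for the ligands of CD28, was higher by 2.65 ± 0.32. Cd5, a brake on antigen receptor signalling, and Sit1, an adaptor of the same kind, were lower, by -3.81 ± 0.25 and -1.45 ± 0.37. The Sit1 call (limma adjusted p = 0.0436) was lost when any of 6 arrays was left out, at adjusted p of 0.0549 to 0.169. Within the arrays that lack the date code the Sit1 call was lost too (limma adjusted p = 0.432). Pdcd1, the gene of PD-1, did not pass, with 4.77 ± 0.78 in IELs, 5.16 ± 0.27 in Naive-like and 4.48 ± 0.78 in Type-1 cells (SD, n = 3), and neither did Vsir (-0.35 ± 0.29) or Lair1 (-0.38 ± 0.30). Between Type-1 and Naive-like cells 1 of the 17 passed, Cd244a at 1.51 ± 0.23 (limma adjusted p = 0.0116), and the call was lost on leaving out Type-1 replicate 2 (adjusted p = 0.0548) or Naive-like replicates 2 or 3 (0.0623 and 0.0697). The Cd244a call was also lost in the 6 arrays that lack the date code (limma adjusted p = 0.226). Of all genes, 0.284% passed between Type-1 and Naive-like cells. Lilrb4a had a larger difference there, 3.20 ± 0.61, with a wide spread, and did not pass (limma adjusted p = 0.0674).

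**Figure D5:**
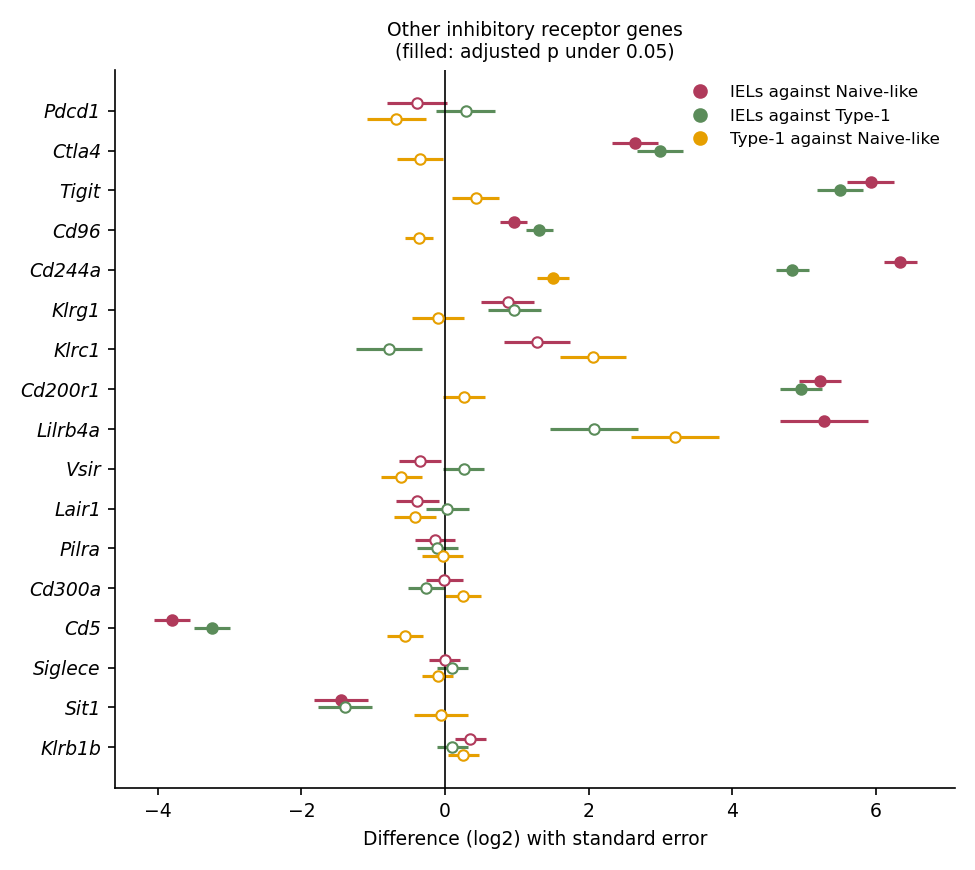
Difference in log2 level with its standard error for 17 other inhibitory receptor genes in the 3 comparisons; filled points passed at an adjusted p under 0.05. Cd244a, Tigit, Cd200r1 and Lilrb4a lie beyond 5 in IELs against Naive-like cells, Cd5 lies at -3.81, and Pdcd1, Vsir and Lair1 lie within 0.7 of 0.

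Of 12 signalling genes downstream of such receptors, 1 rose and 1 fell in IELs relative to Naive-like cells, with a median difference of -0.01. The share of all genes that passed there was 5.19%. Ptpn22, a phosphatase that dampens receptor signalling, was higher by 1.43 ± 0.26 (limma adjusted p = 0.0059), and Dgka, a lipid kinase that removes diacylglycerol, was lower by -2.34 ± 0.27 (limma adjusted p = 0.000173). Against Type-1 cells 2 were higher and 1 lower, where 5.14% of all genes passed. Dgka was lower there by -1.95 ± 0.27, while the calls for Dok1 (1.12 ± 0.29) and Ptpn11 (1.18 ± 0.31), an adaptor and a phosphatase of inhibitory signalling, were lost in 10 and 16 of 22 alternatives, both of them without IEL replicate 2 or 3, Naive-like replicate 1 or Type-1 replicate 2 among others (highest adjusted p = 0.159 and 0.187). With the replicate number as a block, the Ptpn11 call was lost as well (limma adjusted p = 0.0595). Between the lymph node subsets no signalling gene passed the limma test, 1 of 12 had an unadjusted p under 0.05, and the largest differences were those of Pag1 (-0.67 ± 0.29) and Ptpn11 (-0.54 ± 0.31). The phosphatase genes Ptpn6 and Inpp5d did not pass, at 0.01 ± 0.24 and 0.96 ± 0.32 against Naive-like cells.

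Of 17 measured transcription factor genes linked to inhibitory receptors in T cells, 7 rose and 4 fell in IELs relative to Naive-like cells (median difference 0.67, against -0.01 over all genes), where 5.19% of all genes passed. Relative to Type-1 cells 8 rose and 3 fell (median 0.62, against -0.03 over all genes), where 5.14% of all genes passed. These factors were also listed with earlier results of these data known. Prdm1, whose product Blimp-1 takes part in the control of Havcr2 and Lag3 in CD8 T cells, measured 7.01, 7.34 and 6.74 on IEL arrays, with 3.92, 3.59 and 3.85 on Naive-like and 4.89, 4.32 and 4.06 on Type-1 arrays. It was higher in IELs by 3.24 ± 0.25 and 2.60 ± 0.25 (limma adjusted p = 6.77e-06 and 4.82e-05). Nfil3 was higher by 2.76 ± 0.30 and 2.23 ± 0.30 and the nuclear receptor gene Nr4a2 by 4.18 ± 0.44 and 4.38 ± 0.44. Its relatives Nr4a1 and Nr4a3 were higher than in Type-1 cells by 2.87 ± 0.36 and 2.75 ± 0.52 and than in Naive-like cells by 2.12 ± 0.36 and 2.06 ± 0.52. In the 6 arrays that lack the date code, Nr4a3 passed in neither comparison (limma adjusted p = 0.169 and 0.449) and Nr4a1 did not pass against Naive-like cells (0.0890). The Nr4a3 call against Naive-like cells was lost in 10 of 22 alternatives, among them those without IEL replicate 2 or 3 or Naive-like replicate 1 or 3 (up to 0.172). Among the genes that fell, Id3 was lost against Naive-like cells without IEL replicate 3 or Naive-like replicate 3 (0.0595 and 0.0510). Bach2 was lost against Type-1 cells without IEL replicate 2 or Type-1 replicate 2 or 3 (0.0556, 0.0565 and 0.0564). Both calls were also lost in the 6 arrays that lack the date code (limma adjusted p = 0.209 for Id3 and 0.0581 for Bach2). In contrast Maf, another regulator of such receptors, did not pass and its values were lower in IELs (-0.76 ± 0.21 and -0.76 ± 0.21, limma adjusted p = 0.0635 and 0.0622). Tox differed by 0.63 ± 0.31 from Naive-like cells without passing and was higher than in Type-1 cells by 1.49 ± 0.31, a call that was lost without IEL replicate 2 (limma adjusted p = 0.0596), IEL replicate 3 (0.0764) or Type-1 replicate 1 (0.0502). Lef1, a factor of naive T cells, was lower by -3.50 ± 0.25 and -2.62 ± 0.25. Eomes was lower by -1.89 ± 0.27 and -3.41 ± 0.27, with its highest mean in Type-1 cells. Tbx21 instead had its highest mean in IELs, at 8.29 against 7.67 in Type-1 and 5.72 in Naive-like cells. Its IEL difference was 2.57 ± 0.29 from Naive-like cells (limma adjusted p = 0.000166), a call kept in all 22 alternatives. From Type-1 cells it was 0.62 ± 0.29 and did not pass (limma adjusted p = 0.323). Between the lymph node subsets 2 of the 17 passed, Tbx21 (1.95 ± 0.29, limma adjusted p = 0.0116) and Eomes (1.52 ± 0.27, limma adjusted p = 0.035), both genes of T-box factors of type 1 lymphocytes. The Tbx21 call between the lymph node subsets was lost on leaving out Naive-like replicate 2 or 3 (adjusted p = 0.0685 and 0.0665). That of Eomes was lost on leaving out any of 7 arrays, all but IEL replicate 1 and Type-1 replicate 2 (up to 0.203). Neither call held in the 6 arrays that lack the date code (limma adjusted p = 0.275 for Tbx21 and 0.187 for Eomes). Of all genes, 0.284% passed between the lymph node subsets.

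The members resembled each other over the 9 arrays, with Pearson's r from 0.885 (Lag3 and Cd101) to 0.992 (Lag3 and Havcr2). These values describe the arrays only, since the gap between IELs and lymph node cells dominates them and all genes share the same arrays. Among genes brighter than the median of all genes, those most like Lag3 were B4galnt2 (r = 0.984), Tmem273, Plscr1, Cd244a and Cyp2j9 (0.979). Those most like Havcr2 were Cyp2j9 (0.994), Lag3 (0.992), Plscr1, Gpx8 and Cd244a (0.989). Cd160 was most like Nkg7 (0.986), a granule protein gene of cytotoxic lymphocytes, followed by Ddx43, Cd7, Ccl3 and Sytl3 (0.967). Cd101 was most like Slc16a6 (0.986), Cysltr2, Dusp1, Stk39 and Mctp2 (0.981). Every gene named here for its likeness had its mean in Type-1 cells between those of the other subsets.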

How the data were processed

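RNA of γδ T cells was measured on 9 arrays, 3 per subset, grouped by sample title. The deposited values are log2 levels; oligo and RMA made them, per the submitters' processing notes, and the sources used here give no versions, filters or genome build. Values ran from 0.785 to 13.5, and array medians from 4.25 to 4.43. No columns of other samples were present. Of 41345 rows, 23521 had 1 gene symbol, 1814 several and 16010 none in the platform annotation. Rows of 1 symbol gave 22180 genes, with the brightest row kept for each symbol.

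The test was limma 3.58.1 under R 4.3.3 (1 mean per subset, eBayes without trend, two-sided, Benjamini-Hochberg over all genes, threshold 0.05; 6 residual and 6.00 prior degrees of freedom). Precision is limited by the 3 arrays per subset, with a median standard error of 0.24 for a difference. The fit was tested on simulated data. Deviations of same-numbered arrays from their subset means correlated at 0.104 to 0.303 between IELs and Type-1 cells. A pairing was therefore read there from the data, not from the labels. The deviations correlated at -0.015 to 0.229 between IELs and Naive-like cells and 0.0142 to 0.382 between the lymph node subsets, where none was read. Arrays of the same set in the numbering of the descriptions correlated at 0.0733 to 0.382, above 0 in all 3 comparisons. The main fit and its p-values use no pairing, and replicate numbers and description sets enter only as blocks among the alternatives. Members, gene lists and motifs were chosen with earlier results of these data known. Named list genes are, per comparison, up to 4 that passed by size of difference, or the 2 largest where none passed; partners and relatives may all be given. Ctla4, Sit1, Pdcd1, Vsir, Lair1, Ptpn6, Inpp5d, Maf and Tox, and for some comparisons others of these lists, were named beyond this rule, after their values were seen. Likeness took the 5 genes of highest r, without predicted or non-coding genes and receptor segments. List genes with no row of 1 symbol, such as Cd72 and Tcf7, are not analysed here. Alternatives were a dim-gene filter at the 40th percentile, other normalizations, a robust trend, array weights, mean or all rows, only the compared subsets, blocks, the arrays without the date code, and each array left out. Plots were drawn with matplotlib 3.10.9, and tables were made with pandas 2.3.3 under Python 3.11.15.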

Additional observations from a re-analysis of the deposited data

How the results depend on the processing

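Over 22 alternatives, 342 of 344 values of the 16 member tests kept their side of the threshold, and no difference changed direction. The exceptions were Havcr2 and Cd101 in IELs against Type-1 cells within the 6 arrays without the date code, at 1.04 (limma adjusted p = 0.0611) and 1.78 (limma adjusted p = 0.0569). This alternative has fewer arrays. The 344 values include the F tests, which have no direction to change. They also include the tests between the lymph node subsets, where the same side means not passing (lowest limma adjusted p = 0.142, for Cd160). The dim-gene filter removed Havcr2 and gave it no value. Mean or all rows, the robust trend, the blocks and the fit to only the compared subsets left each member's difference unchanged. So did leaving out an array of a subset not compared. In these alternatives only the standard error and p could change, not the direction. With 1 array left out, Lag3 differed from Naive-like cells by 2.44 to 2.72, Havcr2 by 1.30 to 1.40, Cd160 by 1.93 to 2.16 and Cd101 by 2.13 to 2.48, and from Type-1 cells by 1.89 to 2.33, 1.06 to 1.20, 1.13 to 1.41 and 1.46 to 1.96.

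The number of genes called was less stable. For IELs against Naive-like cells it was 1152, but 1920 with array weights and 534 in the 6 arrays that lack the date code. Type-1 against Naive-like cells gave 63, 20 within those arrays and 34 to 87 with 1 array left out, the lowest without Naive-like replicate 3. For IELs against Type-1 cells it was 1140, 565 within those arrays and 724 to 1308 with 1 array left out, the lower counts being 732 without IEL replicate 2 and 724 without IEL replicate 3. The cause of the change with array weights was not tested. Of 48 calls for list genes, 33 held in every alternative and none changed sign.

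With the replicate block, 1378, 81 and 1405 genes passed in the order above, and no member call changed. With sets read from the numbering of the sample descriptions as a block, 1397, 82 and 1452 passed and no member call changed, while Sit1 and Nr4a3 against Naive-like cells (adjusted p = 0.0562 and 0.0689) and Ptpn11 against Type-1 cells (0.0574) were lost.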

Other observations

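The share of windows with the Runx letters was also counted for other genes, after the matches in Havcr2, Cd160 and Cd101 had been seen. Of the 598 genes called higher in IELs against both lymph node subsets, 465 had 580 windows in the RefSeq promoter table, and 27 of these windows (4.66%) held the letters. Among all genes tested it was 751 of 20611 windows (3.64%). The windows of a gene can overlap, and no test was made.

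Runx3, which encodes a Runx factor of CD8 and intraepithelial T cells and was looked up after the motif count, averaged 8.13 ± 0.47 in IELs, 7.01 ± 0.28 in Type-1 and 7.55 ± 0.08 in Naive-like cells (SD, n = 3). It was higher in IELs than in Type-1 cells by 1.12 ± 0.25 (limma adjusted p = 0.0205), and its difference of 0.58 ± 0.25 from Naive-like cells did not pass (limma adjusted p = 0.303). Its lowest mean was in Type-1 cells, whereas that of the 4 receptors was in Naive-like cells. Neither Runx3 (-0.54 ± 0.25, limma adjusted p = 0.769) nor any of the 4 receptors passed between these subsets. A link between Runx3 and the receptors was not tested. Runx1 and Cbfb did not pass in any comparison.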
